A study of Mus musculus with 6 samples.

Results

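The genes described here are 33 markers of peritubular myoid cells, smooth muscle and the extracellular matrix of the testis. They are read by 49 of 55668 probes of a whole-genome mouse array. A probe was a member when the array's own annotation gave it 1 of the 33 gene names; the rule itself uses no measured value, but the gene names were picked with earlier results of these data known. The set splits into 16 contractile and smooth muscle genes, read by 29 probes, and 17 genes of the matrix and of the fibroblasts that secrete it, read by 20 probes.

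RNA of the whole testis was compared between Gipr knockout mice, labelled GIPR KO and written Gipr–/– in the series design, and Gipr+/+ wild-type mice. All were 8-week-old C57BL/6 animals given no further treatment in the labels, with 3 animals per genotype and 1 array per animal. The labels give no more about the knockout allele. Gipr encodes the receptor of the gut hormone glucose-dependent insulinotropic polypeptide, so the comparison asks which testis transcripts differ when that receptor is missing. The tissue was a whole organ, so fewer cells of a type and less RNA per cell cannot be told apart.

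Peritubular myoid cells form a thin contractile layer around each seminiferous tubule. They use smooth muscle actin, myosin and their regulators to move sperm and fluid along the lumen. Together with Sertoli cells they lay down the basement membrane of the tubule, made of type IV collagen, laminin and associated proteins, while interstitial fibroblasts and myoid cells supply fibrillar collagens and proteoglycans. Smooth muscle of the testicular arteries and of the capsule carries many of the same contractile transcripts.

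Values are the log2 of the background-corrected spot signal minus the 75th percentile of the same array, so 0 means a signal equal to that percentile. They compare 1 probe between arrays and say nothing of one gene against another. Probes entered the test if Feature Extraction called them well above background on every array of either genotype, and a gene took the value of the brightest of them. Differences are knockout minus wild type with their standard error (SE), from limma with Benjamini-Hochberg adjustment over all 26933 genes and unnamed transcripts tested. Of the 33 members, 31 could be tested. The defining myoid markers, Acta2 and Myh11, were well above background on all 6 arrays.

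The quality measures given here were alike across the arrays. Between 70.6% and 76.0% of spots were well above background, 0 were saturated, and the arrays correlated at 0.995 to 0.997 over all genes, which are not independent replicates. All arrays lay on 1 slide, knockouts in row 1 and wild types in row 2, so row and genotype cannot be told apart. The targeted gene matched the labels: Gipr (probe on chromosome 7, 19742486 to 19742545, mouse build mm9) read -2.35, -2.31 and -2.12 in the knockouts and 0.08, 0.14 and 0.44 in the wild types. That is 5.58-fold lower (log2 difference -2.48 ± 0.11, SE; limma adjusted p = 0.00196), with every knockout below every wild type. Whether this probe lies in the deleted part is not stated in the labels.

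In the comparison of genotypes, 0 of 31 members passed an adjusted p of 0.05 in limma, where 0.0705% of all genes did. The members' means nevertheless lay mostly on the knockout's side: 12 of 15 contractile and 16 of 16 matrix members had a higher knockout mean, against 50.8% of all genes. Many members share 1 order of the arrays, described below, so they are not independent observations of the genotype. The median difference was 0.06 for the contractile members and 0.18 for the matrix members, beside 0.002 for all genes. At an unadjusted p of 0.05, 1 member was higher, Myh11, and 0 were lower, where the shares of all genes were 3.75% higher and 3.67% lower. Genotypes did not overlap for 2 members, Myh11 and Ptch1, both higher in the knockout, and for 0 on the lower side, where 7.1% and 5.94% of all genes did not overlap. These counts of single members are therefore near or below the shares over all genes.

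**Figure D1:**
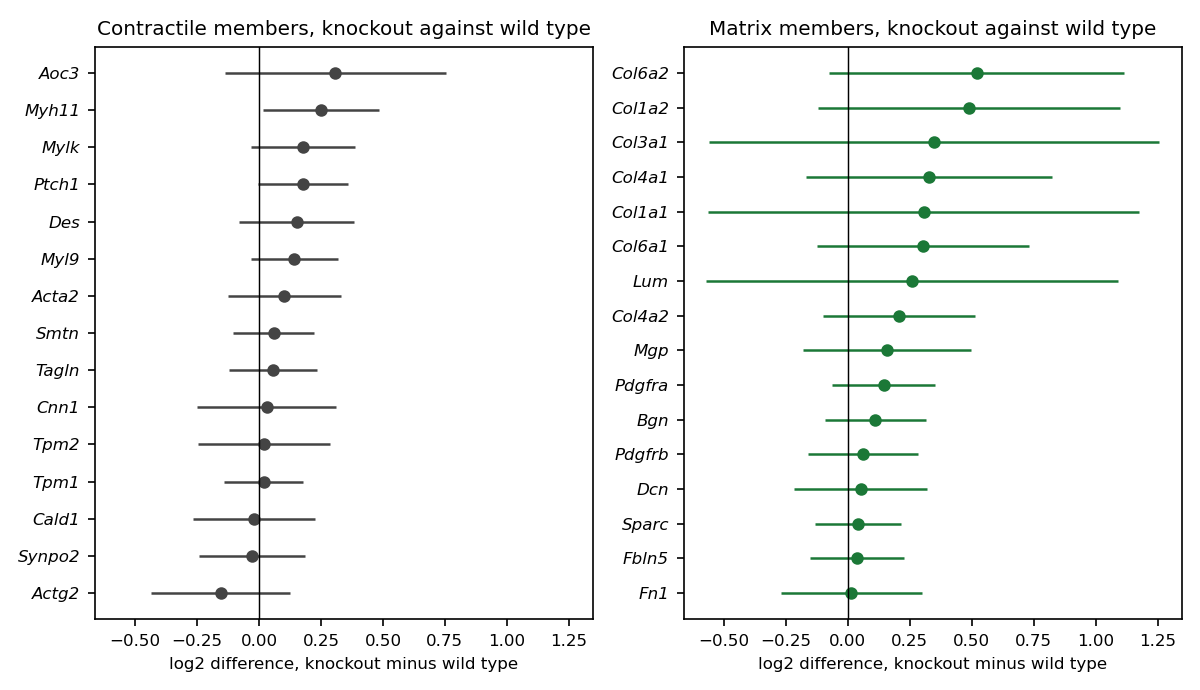
Fitted log2 difference, knockout minus wild type, for 15 contractile members (left) and 16 matrix members (right); points are estimates and lines 95% confidence intervals from limma on 3 arrays per genotype. The interval of Myh11 alone lies above 0, points of 12 contractile and 16 matrix members lie right of 0, and the widest intervals belong to Col1a1, Col3a1 and Lum.

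Among the actins, Acta2, the smooth muscle alpha-actin that is the usual marker of myoid cells, read 3.21, 2.95 and 3.26 in the knockouts and 3.09, 3.00 and 3.02 in the wild types. Knockouts 1 and 3 were above every wild type and knockout 2 was below, so the genotypes overlapped. The difference was 0.10 ± 0.09 (SE), a ratio of 1.07 with a 95% confidence interval of 0.916 to 1.26 (limma adjusted p = 0.762). The probe lies on chromosome 19, 34316060 to 34316119 (mm9). Actg2, the gamma-actin of visceral smooth muscle, had the lowest difference of the contractile members. It read 5.43, 5.75 and 5.33 in the knockouts and 5.59, 5.72 and 5.67 in the wild types, with knockouts 1 and 3 below every wild type and knockout 2 above. Its difference was -0.16 ± 0.12 (SE; limma adjusted p = 0.718), and the arrays that were high for Acta2 among the knockouts were the low ones here. In RNA of a whole testis the cells that gave the Actg2 signal are not known. Set against the 6-array mean of its own gene, the median spermatid marker stood at -0.06, 0.08 and -0.15 in the knockouts. In the wild types it stood at 0.07, 0.11 and -0.02. The part of germ cells in the Actg2 values was not tested.

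Smooth muscle actin genes are driven by serum response factor, which binds the CArG box, a motif of 10 bases that opens with CC, closes with GG and has A or T at the 6 bases between. Its form is the same on both strands, so the search covers both. RefSeq promoter windows (build GRCm38.p6, 250 bases before to 50 after the start) were at hand for 12 of 16 contractile and 10 of 17 matrix members. A full CArG box was found in 1 contractile member, Myl9 (8.33%), and in 0 matrix members, against 1.81% of 27025 genes. With 1 G or C allowed within the 6 inner bases, as in the known elements of Acta2, 2 contractile members matched (Acta2 and Myl9, 16.7%) and 1 matrix member (Col1a2, 10%), against 11.3% of all genes. The stretches below are those of the 2 contractile members that matched, and the matching stretch of Col1a2 is not printed. Capitals mark the boxes, and both printed stretches read 5′ to 3′ on the gene's strand.
Acta2, minus strand, chr19:34255378-34255477: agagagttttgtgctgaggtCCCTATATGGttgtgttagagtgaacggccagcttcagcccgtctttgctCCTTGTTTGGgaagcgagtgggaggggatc
Myl9, plus strand, chr2:156775283-156775394: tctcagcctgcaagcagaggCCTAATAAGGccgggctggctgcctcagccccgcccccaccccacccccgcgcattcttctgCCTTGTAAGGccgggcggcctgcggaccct
The boxes start 84 and 34 bases before the RefSeq start of Acta2 and 161 and 99 bases before that of Myl9, and only the first box of Myl9 has A or T throughout its core. A match of letters is a description of the sequence, and no binding was measured here.

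The myosin members all had a higher knockout mean. Myh11, the smooth muscle myosin heavy chain and the most specific marker of this lineage, read -0.94, -1.13 and -0.79 in the knockouts and -1.13, -1.26 and -1.22 in the wild types. Every knockout lay above every wild type, although knockout 2 and wild type 1 were nearly level. The difference was 0.25 ± 0.10 (SE), a ratio of 1.19 with an interval of 1.01 to 1.40 (limma unadjusted p = 0.0403, adjusted p = 0.662). Over 17 alternative settings its difference ranged from 0.17 to 0.34 and its adjusted p from 0.192 to 0.942. Its unadjusted p stayed under 0.05 when knockout 2 was left out and missed it when any other single array was (0.0510 to 0.112), and also with no filter on dim probes (0.0532). Its single probe lies on chromosome 16, 14202190 to 14202249 (mm9), on the minus strand, starting at base 5559 of the annotated transcript. The probe is printed because it carries the lowest p of the 31 members.
Myh11 probe: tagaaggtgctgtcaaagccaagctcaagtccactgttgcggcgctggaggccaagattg

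Myl9, the regulatory light chain of smooth muscle myosin, read 4.90, 4.74 and 4.94 in the knockouts and 4.75, 4.73 and 4.67 in the wild types. Mylk, the kinase that phosphorylates that light chain to start contraction, read -0.48, -0.77 and -0.60 against -0.72, -0.82 and -0.84. In both, knockouts 1 and 3 were above all wild types and knockout 2 within their range. The differences were 0.14 ± 0.07 and 0.18 ± 0.09 (SE; limma adjusted p = 0.675 and 0.667). A second Mylk probe, dimmer and set within another annotated transcript, read -0.02 ± 0.09, so the value for this gene depends on the probe.

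The actin-binding regulators stayed close to 0 on the brightest probe of each gene. Tagln (transgelin, an actin-bundling protein of smooth muscle) differed by 0.06 ± 0.07, Cnn1 (calponin, an inhibitor of actomyosin) by 0.03 ± 0.12 and Smtn (smoothelin) by 0.06 ± 0.07 (SE). Cald1 (caldesmon) and Synpo2 (myopodin) were at -0.02 ± 0.10 and -0.03 ± 0.09. The limma adjusted p values of these 5 genes ran from 0.806 to 0.956. In the probe-level fit a second probe read 0.13 ± 0.11 for Cald1, -0.14 ± 0.25 for Synpo2 and -0.01 ± 0.09 for Smtn (SE). The sign for Cald1 and Smtn thus depends on the probe. Cnn1 read 1.44, 1.08 and 1.43 in the knockouts and 1.36, 1.33 and 1.18 in the wild types, the arrangement seen in Acta2: knockouts 1 and 3 at the top, knockout 2 at the bottom. Lmod1 (leiomodin, an actin nucleator) was well above background on no array and has no fold. Des (desmin, the muscle intermediate filament) read -3.17, -3.40 and -3.07 against -3.31, -3.41 and -3.37, a difference of 0.15 ± 0.10 (adjusted p = 0.699), with knockout 2 again inside the wild-type range.

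Tropomyosins, which lie along actin filaments and gate myosin, gave different answers by probe. Tpm1 has 6 tested probes, whose differences ran from -0.18 to 0.21. The brightest read 0.02 ± 0.07 (SE; limma adjusted p = 0.943), and its arrays did not separate by genotype. The highest, on chromosome 9, 66871166 to 66871225 (mm9), read -0.42, -0.82 and -0.47 in the knockouts and -0.77, -0.78 and -0.79 in the wild types, a difference of 0.21 ± 0.11. The lowest, at 66880274 to 66880333, read -3.94, -4.29 and -3.55 against -3.70, -3.85 and -3.70, a difference of -0.18 ± 0.18. They belong to different annotated transcripts of the gene and are printed to show the sequences read; they do not overlap, whereas another pair of Tpm1 probes shares 46 bases and is not independent.
Tpm1 probe with the highest difference: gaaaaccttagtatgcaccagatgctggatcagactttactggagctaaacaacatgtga
Tpm1 probe with the lowest difference: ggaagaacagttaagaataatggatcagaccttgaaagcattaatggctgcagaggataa
Neither difference passed (adjusted p = 0.678 and 0.787 in limma's fit over 38884 probes). Tpm2 differed by 0.02 ± 0.11 and its second probe by -0.02 ± 0.11.

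Of the membrane markers, Ptch1, the hedgehog receptor that is itself a target of hedgehog signalling from Sertoli cells, read -4.18, -4.14 and -4.07 in the knockouts and -4.28, -4.43 and -4.21 in the wild types. The genotypes did not overlap, with a gap smaller than the spread within either group. The difference was 0.18 ± 0.08 (SE; limma unadjusted p = 0.0548, adjusted p = 0.662). With normexp background correction it was 0.06, and a second Ptch1 probe read -0.01 ± 0.12 and overlapped. Aoc3, an amine oxidase of smooth muscle and vessel walls, had the highest difference of the contractile members. Its brightest probe read -0.23, -0.83 and -0.48 against -0.82, -0.58 and -1.07, which overlap, a difference of 0.31 ± 0.18 (adjusted p = 0.694). The other Aoc3 probe had every knockout below every wild type (-1.46, -1.47 and -1.62 against -1.44, -1.32 and -1.45), a difference of -0.12 ± 0.07 in the probe-level fit, so the sign for this gene depends on the probe.

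**Figure D2:**
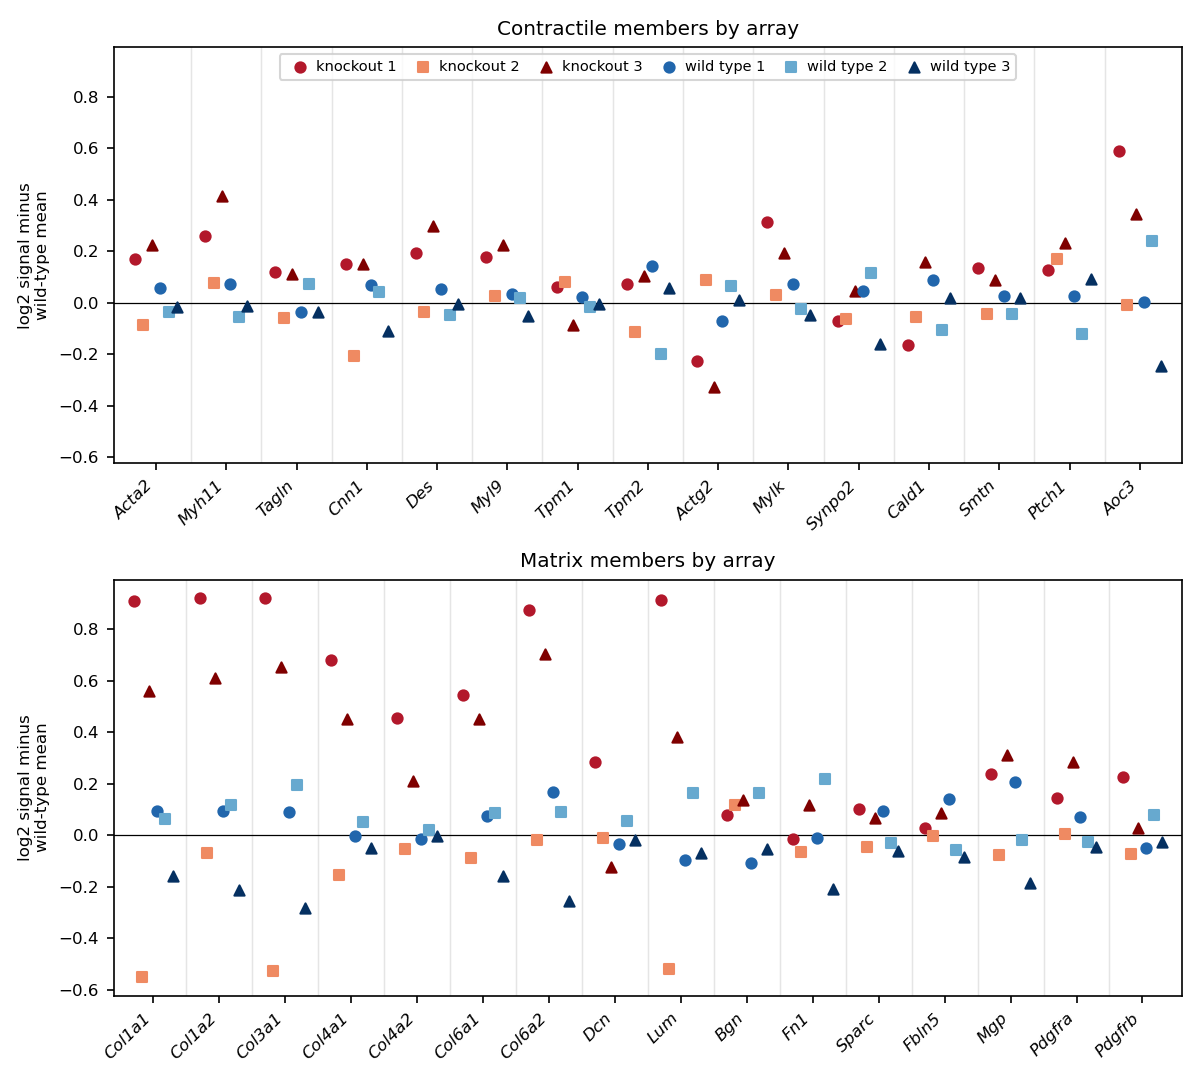
Log2 signal of each member on each of the 6 arrays, minus the wild-type mean of that gene, for contractile (top) and matrix members (bottom); red marks are knockouts 1 to 3 and blue marks wild types 1 to 3. For the 7 collagens knockouts 1 and 3 stand above all wild types while knockout 2 lies within or below them, and Actg2 shows the opposite order.

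Among the matrix members, the SD between knockouts was 0.253 to 0.771 for the tested collagens, 0.725 for Lum and at most 0.211 for the others. All 7 collagens that could be tested had a higher knockout mean, with a median of 0.33 and a range of 0.20 to 0.52, and 0 passed (limma adjusted p from 0.663 to 0.811). Col6a2, a chain of the microfibrillar type VI collagen, had the highest difference of all members. It read -1.02, -1.91 and -1.19 in the knockouts and -1.73, -1.80 and -2.15 in the wild types, with knockouts 1 and 3 at the top and knockout 2 inside the wild-type range. The difference was 0.52 ± 0.25 (SE), a ratio of 1.43 with an interval of 0.950 to 2.16 (unadjusted p = 0.0765, adjusted p = 0.663). Its dimmer probe, above background on 3 knockout and 2 wild-type arrays, had the genotypes apart at 0.34 ± 0.10 (probe-level unadjusted p = 0.014, adjusted p = 0.616). This probe passed the filter only through the knockouts, where it is higher, so its p is not independent support. With the Myh11 probe it is 1 of 2 member probes under 0.05 unadjusted, of 45 tested, and both are higher, where 4.41% of all tested probes were. Col6a1, its partner chain, read 1.73, 1.09 and 1.64 against 1.26, 1.27 and 1.02, a difference of 0.30 ± 0.18.

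The fibrillar collagens give tissue its tensile strength. Col1a1 read 2.48, 1.02 and 2.14 in the knockouts and 1.67, 1.64 and 1.42 in the wild types, with knockout 2 the lowest of the 6. Col1a2, the second chain of the same type I molecule, read 4.22, 3.23 and 3.91 against 3.39, 3.41 and 3.08. Col3a1, the type III chain of reticular fibres, read 2.27, 0.82 and 2.01 against 1.44, 1.55 and 1.07. In each, knockouts 1 and 3 lay above all wild types, knockout 2 lay below them or among them, and the knockouts spanned the wider range. Differences were 0.31 ± 0.36, 0.49 ± 0.25 and 0.35 ± 0.38 (SE; adjusted p = 0.811, 0.676 and 0.799). Col5a2, a chain that joins type I fibres, was above background on 2 of 3 arrays of each genotype and was not tested.

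Type IV collagen is the network of the tubular basement membrane. Col4a1 read 0.48, -0.36 and 0.25 in the knockouts and -0.21, -0.15 and -0.25 in the wild types, a difference of 0.33 ± 0.21 (SE). Col4a2, transcribed from the same promoter region in the other direction, read 0.41, -0.09 and 0.17 against -0.06, -0.02 and -0.05, a difference of 0.20 ± 0.13. In both, the wild types lay close together, knockouts 1 and 3 were higher and knockout 2 was below all wild types (adjusted p = 0.698 for each).

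Col4a1 is read by 10 spots of the same probe on every array, which gives the spread between spots of an array, though not the error of labelling and hybridisation that they share. The standard deviation (SD) between spots was 0.04 to 0.07, against an SD of 0.05 between the wild types and 0.43 between the knockouts. The median spot signal was 1099, 563 and 917 in the knockouts and 642, 673 and 647 in the wild types. Spot noise is thus small beside the spread among knockouts, which also holds differences between animals and between labellings. Acta2 had spot SDs of 0.03 to 0.10, an SD of 0.17 between knockouts and 0.05 between wild types, and Des had 0.06 to 0.13, 0.17 and 0.05. Pdgfra had 0.08 to 0.11, 0.14 and 0.06. The spot SDs are of single spots, while array values are means over 7 to 10 spots. Spot noise in an array value is thus smaller than the spot SD.

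**Figure D3:**
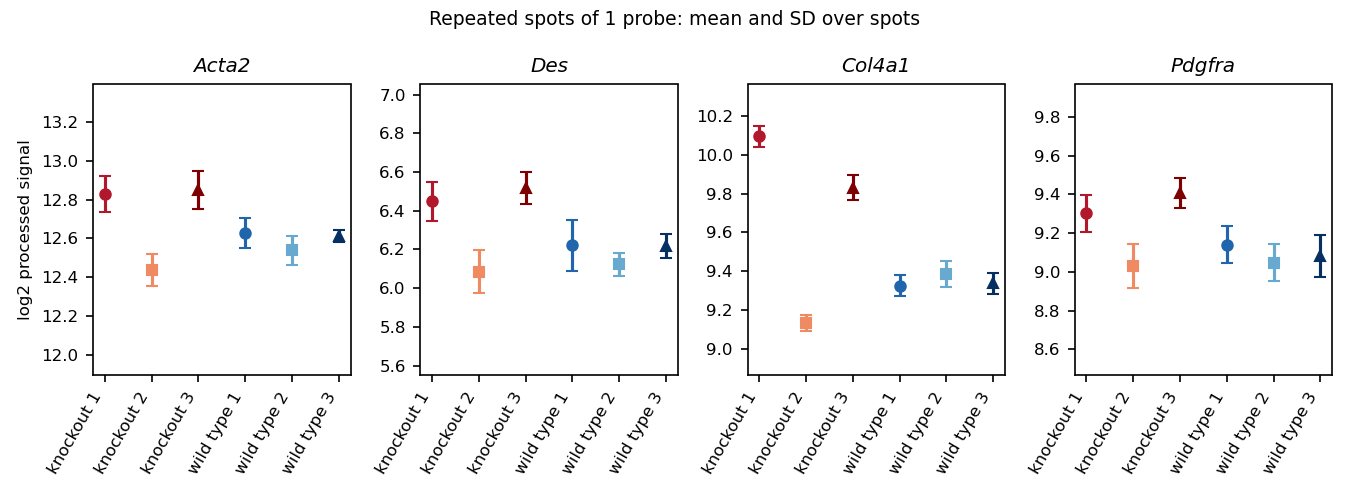
Mean log2 processed signal (before scaling between arrays) of the repeated spots of 1 probe for Acta2, Des, Col4a1 and Pdgfra on each array, with bars of 1 SD over 7 to 10 spots. Col4a1 is high in knockouts 1 and 3 and low in knockout 2 by far more than the bars, while the 3 wild types nearly coincide.

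The small proteoglycans bind and space collagen fibrils. Lum (lumican) followed the collagens, with -2.04, -3.48 and -2.57 in the knockouts and -3.05, -2.79 and -3.02 in the wild types, a difference of 0.26 ± 0.34 (SE). Dcn (decorin) read 3.70, 3.41 and 3.29 against 3.38, 3.47 and 3.40 and differed by 0.05 ± 0.11. In Dcn knockout 1 alone was high and knockout 3 was the lowest array. Bgn (biglycan) differed by 0.11 ± 0.08, and its knockouts lay within the wild-type range. The limma adjusted p values were 0.829, 0.900 and 0.719.

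The glycoproteins were nearly level. Fn1 (fibronectin, the adhesive protein to which cells attach) had the smallest difference of the matrix members, 0.01 ± 0.12 (SE; adjusted p = 0.976), from 0.65, 0.60 and 0.79 in the knockouts and 0.66, 0.89 and 0.46 in the wild types. Sparc, a collagen-binding protein, and Fbln5 (fibulin-5, which organises elastic fibres) each differed by 0.04, with SE of 0.07 and 0.08. Mgp, the matrix Gla protein that holds back calcification, read 1.95, 1.64 and 2.02 against 1.92, 1.69 and 1.53, a difference of 0.16 ± 0.14. The receptors of platelet-derived growth factor, by which fibroblasts and mural cells are recognised, differed by 0.14 ± 0.09 (Pdgfra) and 0.06 ± 0.09 (Pdgfrb). From Sparc to Pdgfrb these 5 genes had adjusted p from 0.694 to 0.899 in limma, and all had overlapping genotypes.

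The probes of a gene often disagreed in sign. Of 10 members with more than 1 tested probe, 2 had all probes higher (Col6a2 and Sparc) and 1 had all lower (Synpo2). The other 7, all contractile, had probes on both sides of 0. The dimmer Col6a2 probe was tested only because it passed the filter in the knockouts. Over all 45 tested member probes, 34 had a higher knockout mean and 0 passed an adjusted p of 0.05 in the probe-level fit. By gene, 50.8% of all genes were higher, and the share over all probes was not computed. Every tested matrix probe was higher, so all the lower probes were contractile. Taken probe by probe, the contractile median was 0.02 rather than 0.06, while the matrix median stayed at 0.18.

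**Figure D4:**
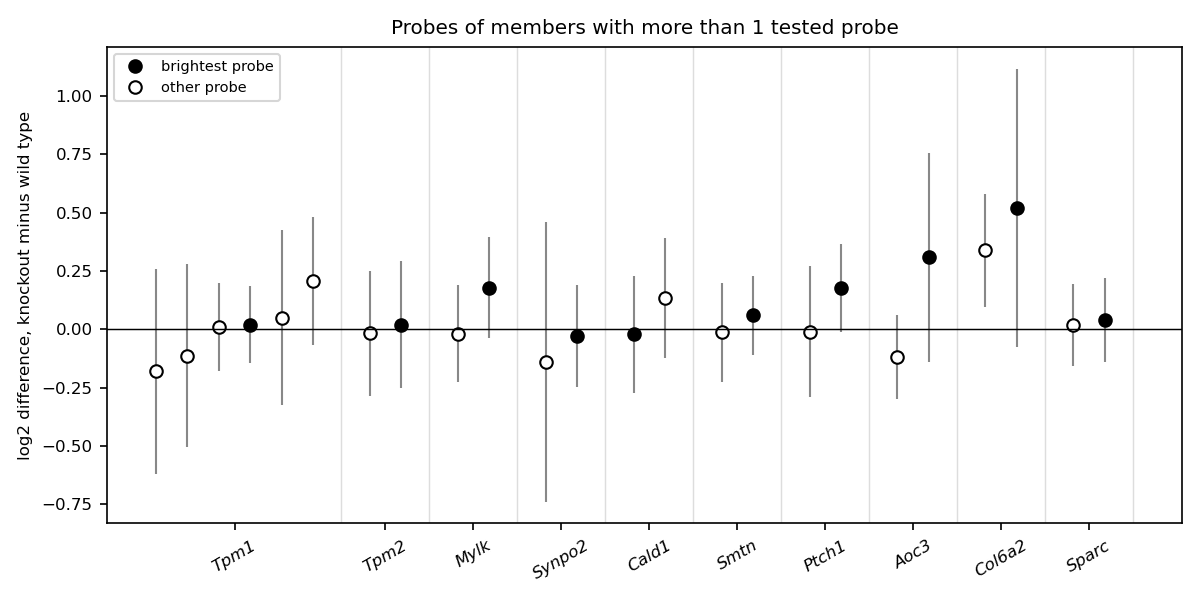
Log2 difference, knockout minus wild type, with its 95% confidence interval for each tested probe of the 10 members that have more than 1; filled points are the brightest probe of the gene and open points the others. For 7 genes the probes fall on both sides of 0, and both Col6a2 probes lie above it.

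Across the members 1 order of the animals recurred. Knockouts 1 and 3 were both above every wild type in 20 of 31 members, 10 contractile and 10 matrix, against 16.4% of all genes. Knockout 2 was the lowest knockout in 24 members (77.4%, against 32.8% of all genes), and in 10 members it was below every wild type (20.3% of all genes). Set against the 6-array mean of its own gene, the median contractile member stood at 0.10, -0.06 and 0.13 in the knockouts and -0.003, -0.07 and -0.07 in the wild types. The median matrix member stood at 0.31, -0.16 and 0.22 and at -0.08, -0.07 and -0.20. Knockout 1 was the highest of the 6 arrays for 11 of 16 matrix members, where it was so for 18.5% of all genes. Wild type 3 was the lowest for 8 of them and above the mean of none.

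The members therefore varied more among knockouts than among wild types. The median SD over the matrix members was 0.232 in the knockouts and 0.139 in the wild types, and over the contractile members 0.142 and 0.0642. The knockout SD was the larger in 12 of 16 and in 12 of 15 members, beside 58.0% of all genes, whose medians were 0.109 and 0.0901. No test of this difference in spread was made.

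Leaving out knockout 2 moved the medians and the counts of calls further than leaving out any other array. The contractile median became 0.15, with 11 of 15 members higher, and the matrix median 0.30, with 16 of 16 higher. Then 15 members were higher at an unadjusted p of 0.05 in limma and 1, Actg2, was lower, against 5.64% and 9.2% of all genes, and still 0 passed after adjustment. Genotypes did not overlap for 20 members on the higher and 1 on the lower side, against 16.4% and 18.6% of all genes. The shares are from the same comparison of 2 knockouts with 3 wild types. The 20 are the members given above with knockouts 1 and 3 above every wild type, so this count restates that order. Knockout 2 was the lowest knockout in 24 members, so the higher medians without it follow from the same values. Col4a1 then read 0.56 ± 0.09 (SE; unadjusted p = 0.00141, adjusted p = 0.196), Col6a2 0.79 ± 0.15, Col3a1 0.79 ± 0.17, Col1a1 0.74 ± 0.14 and Myh11 0.34 ± 0.08. Without knockout 1 the matrix median was 0.07, with 13 of 16 members higher. Without wild type 1 the contractile median was 0.09 and 6 members had non-overlapping genotypes, all higher in the knockout, against 11.6% of all genes in that comparison. The labels give no reason to leave out any animal.

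The wider contractile machinery had a median near 0. In a list of 46 other smooth muscle genes, 44 were tested, 32 had a higher knockout mean (50.8% of all genes) and the median was 0.03. At an unadjusted p of 0.05, 2 were higher and 1 lower, against 3.75% and 3.67% of all genes, and 0 passed after adjustment in limma. Values are given for 3 genes, which are not the full set of those 3 calls. Ppp1r14a (CPI-17, a smooth muscle inhibitor of myosin phosphatase) read -0.42, -0.01 and -0.46 in the knockouts and 0.32, 0.13 and 0.71 in the wild types, lower in every knockout (-0.69 ± 0.19, SE; limma unadjusted p = 0.00917, adjusted p = 0.633). Ppp1r12a, the targeting subunit of the same phosphatase, differed by 0.21 ± 0.08 with overlap, and Hspb6, a small heat shock protein of relaxing smooth muscle, by 0.15 ± 0.07 without overlap (limma unadjusted p = 0.0472 and 0.0688, adjusted p = 0.662 for each). Of the 44 genes, 2 had non-overlapping genotypes on the higher side and 1 on the lower, against 7.1% and 5.94% of all genes.

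Other matrix genes had a median between that of the members and that of all genes. Of 65 listed, 60 were tested, 43 had a higher mean, the median was 0.11, and 2 were higher and 0 lower at an unadjusted p of 0.05, beside the same shares of all genes. Plod2, a lysyl hydroxylase that prepares collagen for cross-linking, read -1.75, -2.41 and -1.83 in the knockouts and -2.36, -2.46 and -2.50 in the wild types (0.44 ± 0.18, SE). Eln (elastin) read -2.43, -3.20 and -2.71 against -3.29, -3.26 and -3.17 (0.46 ± 0.19). Both repeated the order of the collagens, with knockout 2 among the wild types (limma adjusted p = 0.662 for each). Nid2 (nidogen-2, a linker of laminin and type IV collagen) read 0.14 ± 0.06 without overlap, and Col14a1, a fibril-associated collagen, 0.16 ± 0.08 with overlap. Genotypes did not overlap for 3 of the 60 on the higher side and 0 on the lower, against 7.1% and 5.94% of all genes. Without knockout 2, 17 of the 60 were higher and 3 lower at an unadjusted p of 0.05, against 5.64% and 9.2% of all genes.

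Among 27 genes of the signals that act on or mark myoid cells and their precursors, 26 were tested, 16 had a higher mean, the median was 0.03 and 0 had an unadjusted p under 0.05. Gli1, the transcription factor induced by hedgehog signalling, read -1.18, -1.40 and -1.07 in the knockouts and -1.34, -1.52 and -1.54 in the wild types, overlapping in knockout 2 (0.25 ± 0.11, SE; limma adjusted p = 0.662). The ligands of the growth factor receptors above differed in sign. Pdgfa read 0.17 ± 0.08 and Pdgfb, whose knockouts were all below the wild types, -0.14 ± 0.06. Non-overlap was found for 0 of the 26 genes on the higher side and 1 on the lower, against 7.1% and 5.94% of all genes. Cxcl12, a chemokine of stromal cells, read -0.37 ± 0.19.

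Markers of other cells that a whole testis holds were measured on the same arrays. Red blood cell genes, like the matrix members, were high in knockouts 1 and 3 and low in knockout 2: their median deviation was 0.74, -0.45 and 0.55 in the knockouts and -0.68, -0.08 and -0.17 in the wild types. Hba-a1, an alpha-globin whose probe may also read its near-identical copy, read 3.07, 1.86 and 2.82 against 1.60, 2.30 and 2.26. Over 6 tested red cell genes, 4 had a higher knockout mean, the median difference was 0.55, and the summed level, in multiples of the array percentile, ran from 21.8 to 48.2 in the knockouts and from 19.3 to 27.9 in the wild types. By median deviation, wild type 1 was the lowest array for these genes and wild type 3 for the matrix members. The part of blood in the collagen values was not tested.

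Pericyte markers had a higher mean for 6 of 9 (median 0.05, summed level 26.0 to 27.7 in the knockouts and 26.0 to 26.7 in the wild types). Knockout 1 was the highest array for 5 of the 9, where it was so for 18.5% of all genes. Smooth muscle of the testicular arteries had no marker list of its own. Endothelial markers leaned lower (4 of 12 higher, median -0.09, summed level 13.7 to 15.9 against 15.8 to 16.1). Of the Sertoli cell markers 9 of 12 had a higher mean (median 0.09, 336 to 351 against 320 to 325). Leydig cell markers were higher for 1 of 9 (median -0.44, 75.4 to 96.6 against 98.0 to 123), macrophage markers for 2 of 10 (median -0.17, 8.17 to 10.03 against 9.40 to 11.4) and spermatid markers for 2 of 10 (median -0.10, 2051 to 2329 against 2163 to 2287). Each spermatid marker was lowest in knockout 3, and none was above its own mean in knockout 1, the opposite of the matrix members in those arrays, and their part in the result was not tested. Mesothelial markers of the capsule were higher for 4 of 7 (median 0.01, 3.79 to 4.33 against 3.92 to 4.50) and skeletal muscle markers for 6 of 10 (median 0.05, 1.99 to 2.13 against 1.87 to 2.14). Of 10 epididymis markers 6 were not above background in either genotype, and 1 of the 4 tested was higher (median -0.21, 90.1 to 110 against 103 to 113). Adipose markers were highest in knockout 1 and wild type 2 (3 of 5 higher, median 0.13, 4.05 to 10.6 against 4.44 to 9.02). The median matrix member was highest in knockout 1 and then knockout 3. The part of adipose tissue was not tested.

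**Figure D5:**
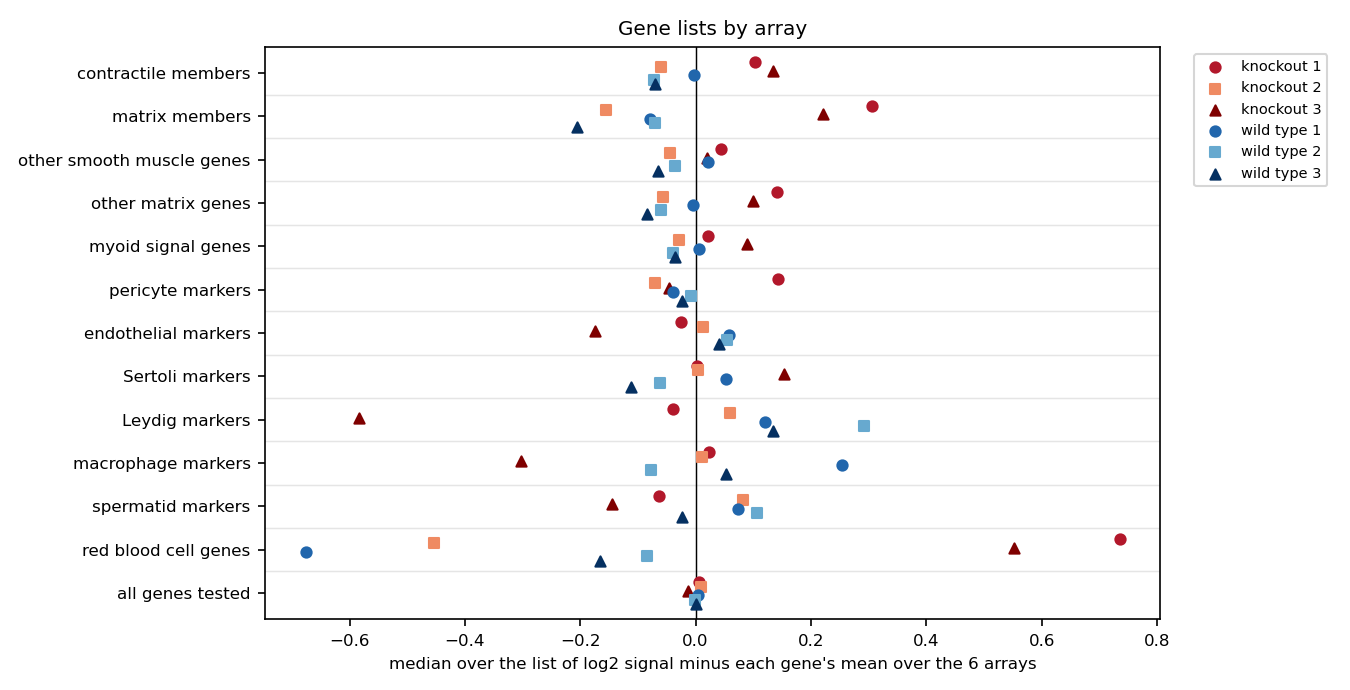
Median over each gene list of the log2 signal on an array minus the 6-array mean of the same gene; each row is a list and each mark an array, red for knockouts and blue for wild types. Matrix members and red blood cell genes both have knockouts 1 and 3 on the right and knockout 2 on the left, and all genes tested sit near 0.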

How the data were processed

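Members and lists were chosen with earlier results of these data known. Images were read with Agilent Feature Extraction 10.7.3.1, per the submitters' processing notes, and the deposited processed signal is a linear, background-corrected spot intensity, per the file headers. Per the labels' protocols, 100 ng of RNA was labelled with Cy3. The authors' deposited table was set against the scanner intensity values and equals them times 1 factor per array; it served as an alternative.

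Outlier spots were left out, log2 was taken, spots of a probe were averaged and each array's 75th percentile was subtracted. limma 3.58.1 (R 4.3.3) fitted all 6 arrays without covariates, on 1 value per gene, with two-sided tests, and was tested on simulated data. The other settings tried were normexp (offset 50), 4 scalings or sources of values, 2 filters, all probes or their mean, 2 variance models, a replicate block and leaving out each array. Precision is limited by 3 arrays per group. All members are described. Full values go to Acta2, Myh11, members with unadjusted p under 0.05 or without overlap, the extremes of each group and, chosen after their values were seen, further members; wider lists are named by their 4 lowest p, of which 1 gene is not reported here.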

Additional observations from a re-analysis of the deposited data

How the results depend on the processing

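Under the alternatives, 0 of 31 members passed an adjusted p of 0.05, and 21 never changed sign in 17 settings. The number with an unadjusted p under 0.05 was 1 as reported, where 7.42% of all genes were under 0.05. It was 2 with normexp (8.54% of all genes), 2 with a gene's probes averaged (7.86%) and 3 with eBayes trend and robust (8.35%). It was 10 with array weights (20%) and 0 with no filter on dim probes (5.51%). When 1 array was left out it ran from 0 to 16. The 16 came without knockout replicate 2, where 14.8% of all genes were under 0.05. In the other fits without 1 array it was 0 or 1, against 4.67% to 9.7% of all genes. Members whose genotypes do not overlap numbered 2 as reported, against 7.1% of all genes on the higher and 5.94% on the lower side. They numbered 1 with normexp (6.15% and 6.9%) and 1 with a gene's probes averaged (7.73% and 5.78%). When 1 array was left out they numbered 2 to 21. The 21 came without knockout replicate 2, against 16.4% and 18.6% of all genes. In the other fits without 1 array they numbered 2 to 6, against 9.61% to 15.9% higher and 9.11% to 13.3% lower. The contractile median ran from 0.045 to 0.150 and the matrix median from 0.07 to 0.30 when 1 array was left out. With array weights the medians were 0.12 and 0.25. The weights that limma gave were unequal: 2.135, 0.57 and 0.51 for knockouts 1 to 3 and 1.11, 2.48 and 0.59 for wild types 1 to 3. Fewer arrays make non-overlap more frequent by construction; for the other changes the cause was not tested. Every scaling kept 12 contractile and 16 matrix members higher. Arrays of the same replicate number did not deviate together over all genes (correlations 0.05, -0.05 and -0.03). This check cannot exclude that the numbers pair animals. With the replicate block the medians stayed at 0.06 and 0.18 and the number under 0.05 at 1. Dim probes limit Lmod1 and Col5a2, which have no test.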
